A study of Mus musculus with 2 samples.

Results

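10 genes of matrix proteoglycans were followed in the clonal mouse marrow stromal line M210B4, an established cell line, after activation of CD84, an immune cell receptor of the SLAM family. The members, named by symbol, were decorin (Dcn), versican (Vcan), biglycan (Bgn), lumican (Lum), fibromodulin (Fmod), osteoglycin (Ogn), prolargin (Prelp), asporin (Aspn), perlecan (Hspg2) and podocan (Podn), 10 of the 22180 genes that the arrays report through a probe set with a single gene symbol. The treated culture received a CD84-activating antibody (clone 152-1D5), and the culture it was set against received an IgG1 isotype antibody. Both were kept for 24 h at 37 °C and 5% CO2 in RPMI medium with 2% serum, 200000 cells each. Each condition was read on 1 Affymetrix Mouse Gene 2.0 ST array, so every difference below is between 2 arrays and comes with no replicate check, error or p-value, and the number of arrays limits the precision. Cd84 itself was not detected, at 4.15 after anti-CD84 and 3.82 after IgG1. In RNA of a whole culture, fewer cells of a type and less RNA per cell cannot be told apart.

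Proteoglycans are core proteins that carry glycosaminoglycan chains, long sulfated sugars made in the Golgi. Most members belong to the small leucine-rich family, horseshoe-shaped proteins that bind collagen fibrils and hold growth factors such as TGF-beta in the matrix. Versican instead forms large aggregates with hyaluronan, and perlecan is the heparan sulfate proteoglycan of basement membranes. In bone marrow such molecules are part of the stroma on which blood cells develop, and heparan sulfate chains can bind chemokines.

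Values are log2 expression values as deposited, and a difference is the anti-CD84 value minus the IgG1 value. A gene counted as detected above 4.84 on at least 1 array, a working level taken from 1394 odorant and pheromone receptor genes, of whose values 95% lie below it and which stromal cells are not known to use. Of the 10 members 9 were detected, all of them on both arrays. Of these, 3 were at least 1.5-fold higher after anti-CD84 (Vcan, Dcn and Podn), 1 was at least 1.5-fold lower (Prelp) and 5 lay within 1.5-fold. Among all 13284 detected genes 10.7% were higher and 6.4% lower by 1.5-fold or more. These counts use the difference as deposited, also where 1 array lies below the detection level. A fold printed for such a gene is counted from that level, as "at least", and genes that pass only by the deposited difference are pointed out. After subtraction of 0.09, the median over detected genes, the members split into 2 higher (Vcan and Dcn) and 2 lower (Prelp and Aspn), and the detected genes into 7.71% higher and 8.49% lower. At 2-fold the members counted 0, against 1.98% of detected genes higher and 1.43% lower. The median difference of the 9 members was 0.24, between -0.83 and 0.79, and their median absolute difference was 0.57, against 0.27 over all detected genes.

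**Figure D1:**
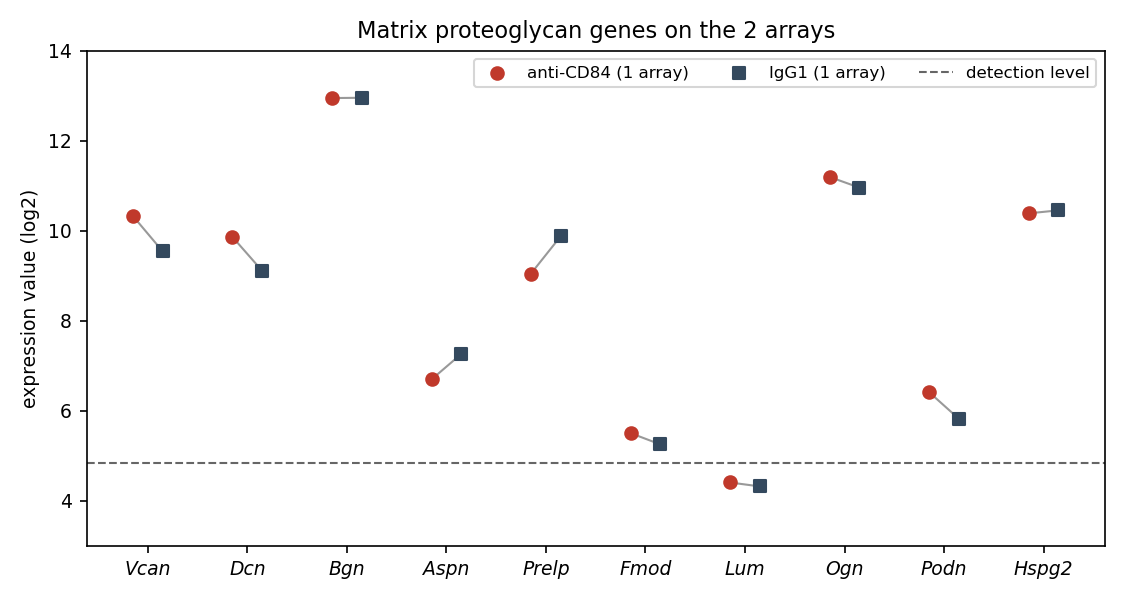
Log2 expression values of the 10 members on the anti-CD84 array (red circles) and the IgG1 array (dark squares), with the detection level of 4.84 as a dashed line. Vcan, Dcn and Podn are higher on the anti-CD84 array and Prelp and Aspn lower, Bgn and Hspg2 lie level, and Lum is below the dashed line on both arrays.

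Array differences narrowed with level, which sets the scale for single genes. Their standard deviation was 0.62 for the 1477 detected genes with a mean log2 value under 5, 0.43 for the 9599 from 5 to 9, and 0.30 for the 2208 over 9. The value under 5 is widened by the filter, since a gene with a mean below 4.84 enters only if its arrays differ enough. Vcan, Dcn, Bgn, Ogn, Prelp and Hspg2 lay over 9, and Podn, Aspn and Fmod from 5 to 9. Over 9, 4.76% of genes were higher and 1.22% lower by 1.5-fold or more.

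Versican, the hyaluronan-binding member, had a log2 value of 10.33 after anti-CD84 and 9.54 after IgG1. It was 1.73-fold higher, a difference of 0.79, and 32 of the 2208 genes over 9 (1.45%, Vcan included) had a difference at least as high. The probe set gives 1 value for the gene and does not separate the splice forms that differ in their chondroitin sulfate regions. Decorin, which binds collagen fibrils and TGF-beta and carries a single chondroitin or dermatan sulfate chain, had 9.86 after anti-CD84 and 9.11 after IgG1. It was 1.69-fold higher, a difference of 0.76, reached by 37 of the 2208 genes (1.68%). Both genes stayed past 1.5-fold with centring, a loess curve and quantiles, the 3 alternatives that can move them, with differences down to 0.68 for Vcan and 0.64 for Dcn. The other alternatives concern dim values or genes with several probe sets and leave these 2 values as they are.

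The other class I members did not share the decorin difference. Biglycan, the closest relative of decorin, carries chondroitin or dermatan sulfate chains and in soluble form activates Toll-like receptors. It had 12.95 on both arrays, a difference of -0.01, and 1455 of the 2208 genes over 9 had a difference at least as high. Asporin, which carries an aspartate repeat in place of a glycosaminoglycan chain and binds collagen and TGF-beta, had 6.69 after anti-CD84 and 7.26 after IgG1. It was 1.48-fold lower, a difference of -0.57 that lies just inside the 1.5-fold line, and 558 of the 9599 genes from 5 to 9 (5.81%) were at least as low. Podn, below, is the member just past that line. With scaling by centring, a loess curve or quantiles, Aspn passed 1.5-fold, at -0.65, -0.68 and -0.69.

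In class II, which holds keratan sulfate proteoglycans and their relatives, Prelp stood at 9.05 after anti-CD84 and 9.88 after IgG1. Prolargin binds collagen and perlecan at basement membranes and is abundant in cartilage. It was 1.78-fold lower, a difference of -0.83, and 12 of the 2208 genes over 9 (0.543%, Prelp included) were at least as low. With the mean of its probe sets the difference was -0.52, inside 1.5-fold. Fibromodulin, which guides collagen fibril assembly, had 5.50 after anti-CD84 and 5.25 after IgG1, a difference of 0.25 near the detection level. Lumican, another collagen fibril regulator, was below that level on both arrays, at 4.40 after anti-CD84 and 4.32 after IgG1, so no fold is given for it.

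Osteoglycin, the class III member, had 11.20 after anti-CD84 and 10.96 after IgG1. Its difference of 0.24 was matched or passed by 698 of the 2208 genes over 9. Podocan, of class V, is a secreted leucine-rich protein known from kidney podocytes and vascular smooth muscle. It had 6.41 after anti-CD84 and 5.82 after IgG1 and was 1.51-fold higher, a difference of 0.60 reached by 1074 of the 9599 genes from 5 to 9 (11.2%). With the same 3 scalings it lay inside 1.5-fold, at 0.51, 0.52 and 0.50. Perlecan had 10.39 after anti-CD84 and 10.45 after IgG1, a difference of -0.07.

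**Figure D2:**
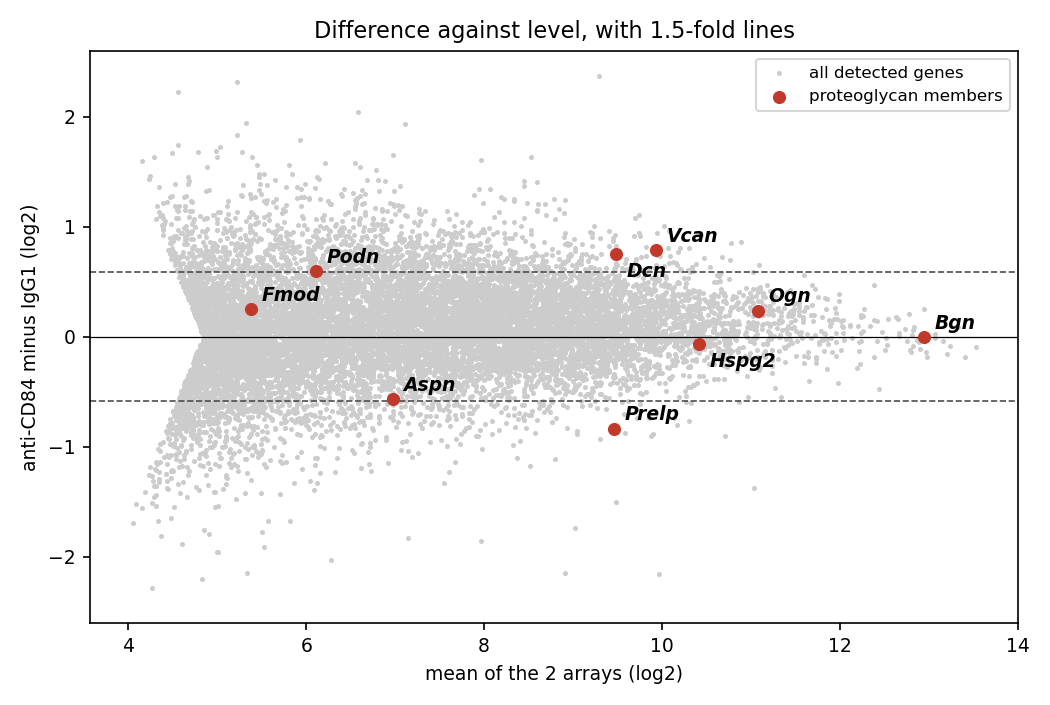
Difference between the arrays (anti-CD84 minus IgG1, log2) against the mean of both arrays (log2) for all 13284 detected genes (grey) and the 9 detected members (red), with dashed lines at 1.5-fold. Vcan and Dcn lie at the upper edge and Prelp at the lower edge of the grey cloud at their level, Podn and Aspn lie on the dashed lines, and Bgn, Hspg2 and Ogn lie near 0.

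The members Bgn, Fmod and Prelp, have 2 probe sets each, of which the brighter was used above. The identifiers of this array type run along each chromosome strand by strand. Of 16015 genes with a single probe set a known RefSeq strand and at least 10 such neighbours, 99.5% had an identifier whose neighbours, up to 20 on each side, lay mostly on the gene's own strand. By that order 3 of the 13 probe sets of the members sit among genes of the opposite strand. They are the dimmer probe sets of Bgn and Prelp and the brighter one of Fmod. The gene strand of Dcn and Lum was not known here, so their probe sets could not be placed on either side. The strand a probe set targets was not read from any annotation here.

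The Fmod probe set among genes of its own strand, the plus strand, had 5.24 after anti-CD84 and 5.47 after IgG1. Its difference was -0.23, against 0.25 for the brighter one, so the direction for Fmod depends on the probe set. All 29 neighbours counted for the dimmer one were on the plus strand, and all 31 counted for the brighter one on the minus strand. The second Prelp probe set, with 29 of 29 neighbours on the strand opposite to Prelp, had 4.76 after anti-CD84 and 4.98 after IgG1. That is a difference of -0.21, in the same direction as the brighter one. The second Bgn probe set, with 30 of 30 neighbours opposite, had 10.23 after anti-CD84 and 10.29 after IgG1, a difference of -0.06. Of 592 genes that had 1 probe set on each side, the one on the gene's own side was the brighter in 452. With the own-strand probe set for Fmod, the median difference of the members was -0.01 in place of 0.24, so the sign of that median rests on this choice.

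Several members lie next to each other in the genome, in clusters of small leucine-rich genes, and the neighbours did not share the members' differences throughout. Dcn and Lum are adjacent on chromosome 10, followed by Kera, the cornea proteoglycan keratocan (4.05 after anti-CD84, 4.28 after IgG1) and Epyc, the cartilage proteoglycan epiphycan (3.50 after anti-CD84, 4.34 after IgG1). Only Dcn of these 4 was detected. On chromosome 13, Ecm2, Aspn, Omd and Ogn follow each other. Omd, which encodes osteomodulin, had 6.98 after anti-CD84 and 7.04 after IgG1, a difference of -0.06, and Ecm2 had 5.29 after anti-CD84 and 5.58 after IgG1, a difference of -0.29. The differences in this cluster ran from -0.57 for Aspn to 0.24 for Ogn. On chromosome 1, Prelp lies between Optc, which was not detected (4.81 after anti-CD84, 4.80 after IgG1), and Fmod.

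Elsewhere on chromosome 13, Vcan lies beside Hapln1, the link protein of hyaluronan aggregates, which neither array detected (3.74 after anti-CD84, 4.31 after IgG1). The gene beyond it, Edil3, which encodes an integrin-binding matrix protein, had 8.96 after anti-CD84 and 7.72 after IgG1 and was 2.36-fold higher. In all, the 2 nearest measured genes on each side of the members comprised 29 other genes. Of the 19 detected, the median difference was 0.06, and only Edil3 was past 1.5-fold when values below the detection level were counted from it. By the deposited difference 2 were higher and 1 lower, the others being detected on 1 array each. Dusp9 had 5.07 after anti-CD84 and 4.43 after IgG1, and 4930556N09Rik had 4.10 after anti-CD84 and 4.88 after IgG1.

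**Figure D3:**
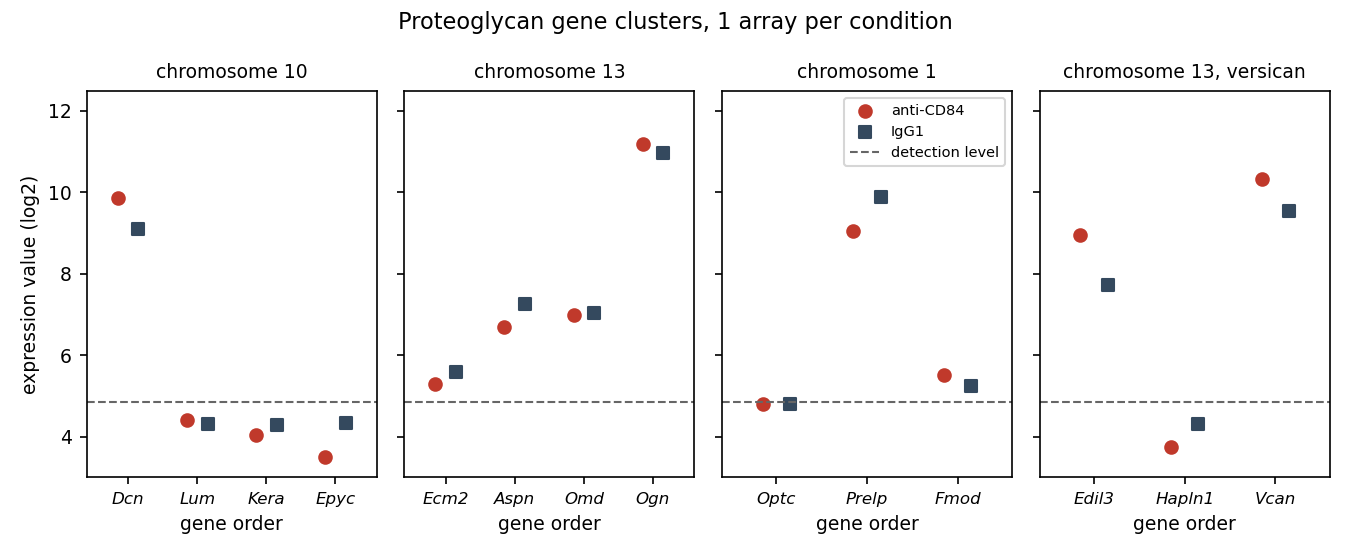
Log2 expression values of genes of 4 chromosome regions, in gene order, on the anti-CD84 array (red circles) and the IgG1 array (dark squares), with the detection level dashed; unlisted genes between them are left out. Dcn alone is above the dashed line in its cluster, Aspn is lower and Ogn slightly higher after anti-CD84 within 1 cluster, and Edil3 and Vcan are both higher with the undetected Hapln1 between them.

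The sequences upstream of the members that differed most are shown so that the letters before genes that were higher and lower can be compared. Windows of 250 bases before the RefSeq transcription start (GRCm38.p6) were found for 8 of the 10 members (not for Dcn and Lum), with a pair of starts for Podn. They are written 5′ to 3′ on the gene's strand and end at the base before the start. Capitals mark any match, on either strand, to the TATA box (letters TATAAA), the GC box (letters GGGCGG), the AP-1 motif (letters TGACTCA) or the CCAAT box (those letters).
Vcan, chr13:89742513-89742762, minus strand: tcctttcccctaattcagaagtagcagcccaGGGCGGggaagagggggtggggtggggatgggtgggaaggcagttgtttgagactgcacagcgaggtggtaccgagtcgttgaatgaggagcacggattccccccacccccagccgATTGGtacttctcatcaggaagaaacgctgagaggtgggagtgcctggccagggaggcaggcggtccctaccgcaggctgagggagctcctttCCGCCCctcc
Podn, chr4:108031955-108032204, minus strand, the outer start: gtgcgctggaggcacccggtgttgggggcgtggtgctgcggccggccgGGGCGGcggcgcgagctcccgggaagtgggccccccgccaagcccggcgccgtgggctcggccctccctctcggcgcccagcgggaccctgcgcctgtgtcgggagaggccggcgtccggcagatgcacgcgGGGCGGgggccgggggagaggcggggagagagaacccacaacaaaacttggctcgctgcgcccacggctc
Prelp, chr1:133921402-133921651, minus strand: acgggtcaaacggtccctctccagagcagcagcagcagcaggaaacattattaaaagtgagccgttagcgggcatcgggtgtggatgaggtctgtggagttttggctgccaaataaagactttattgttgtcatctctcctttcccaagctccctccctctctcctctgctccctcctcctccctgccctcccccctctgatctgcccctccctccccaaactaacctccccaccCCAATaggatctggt
Aspn, chr13:49544193-49544442, plus strand: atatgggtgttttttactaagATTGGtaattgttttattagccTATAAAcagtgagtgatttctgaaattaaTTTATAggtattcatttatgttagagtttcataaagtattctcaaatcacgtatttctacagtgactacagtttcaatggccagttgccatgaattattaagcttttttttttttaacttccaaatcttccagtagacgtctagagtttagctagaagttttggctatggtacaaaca

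The upstream windows of Vcan and Podn were richer in G and C than those of Prelp and Aspn, and Dcn had no window to compare. The share of G and C was 62.4% for Vcan, 78.0% for the outer and 64.0% for the inner Podn start, 55.6% for Prelp and 30.0% for Aspn. The median over 32536 distinct windows of RefSeq genes was 52.4%, with quartiles of 45.2% and 61.2%. Among members with small differences the share was 64.4% for Bgn, 70.0% for Hspg2, 51.2% for Fmod and 42.0% for Ogn, so composition did not follow the difference across the members.

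The Vcan window held 2 GC boxes, beginning 219 and 10 bases before the start, and 1 CCAAT box at 103. The outer Podn window held 2 GC boxes, at 202 and 70, and the inner one had no match to any of the 4 motifs. The Prelp window held 1 CCAAT box, at 15. The Aspn window held 2 TATA box matches, at 207 and 178, and 1 CCAAT box match at 229. Hspg2 had 5 GC boxes, Bgn 3 of which a pair overlap, Ogn 2 overlapping TATA box matches, and Fmod had no match to any motif. Of all windows 12.3% held the TATA box, 33.0% the GC box, 33.8% the CCAAT box and 4.45% the AP-1 motif, which none of these 9 member windows held. A match is a run of letters and not evidence of a bound factor.

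Glycosaminoglycan genes were read in lists that cover building, editing and cleaving the chains on these cores and supplying their precursors. Of the 54 detected, 13 (24.1%) were at least 1.5-fold higher after anti-CD84 and 1 (1.85%) lower, against 10.7% and 6.4% of all detected genes. These 54 come from 4 lists joined after their values were seen. In the list of the linker region and of chondroitin and dermatan sulfate synthesis, 5 of 20 detected genes were at least 1.5-fold higher and 1 lower, with a median difference of 0.26. Chst11, a chondroitin sulfotransferase, had 7.85 after anti-CD84 and 6.68 after IgG1 and was 2.24-fold higher. Csgalnact1, which starts chondroitin chains, had 7.97 after anti-CD84 and 7.01 after IgG1 and was 1.93-fold higher. The linker enzymes B3galt6 and B3gat3 were 1.60-fold and 1.59-fold higher. The lower gene, Chst3, was detected after IgG1 only (4.27 after anti-CD84, 4.87 after IgG1), and counted from the detection level it is at least 1.02-fold lower, which leaves 0 lower genes. It was named, like the fifth higher gene Chst14 (a difference of 0.60), which sulfates dermatan, after its values were seen. With centring, the loess curve or quantiles, 3 genes of this list were 1.5-fold higher.

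In the heparan sulfate list, 5 of 15 detected genes were at least 1.5-fold higher and 0 lower, with a median of 0.17. Sulf2, which trims sulfates from heparan sulfate outside the cell, had 7.62 after anti-CD84 and 6.71 after IgG1 and was 1.87-fold higher. The sulfotransferases Hs2st1 and Hs6st1 were 1.83-fold and 1.76-fold higher. The heparan sulfate-cleaving enzyme Hpse was 1.82-fold higher (5.88 after anti-CD84, 5.01 after IgG1). Hpse has 2 probe sets, and with the mean of all probe sets it no longer counted, so that 4 genes of this list were higher. The chain polymerases Ext1 (9.74 after anti-CD84, 9.64 after IgG1) and Ext2 (8.73 after anti-CD84, 8.71 after IgG1), named after their values were seen, differed by 0.10 and 0.02. The fifth higher gene, Ndst4, also named after its values were seen, was detected after anti-CD84 only (5.27 after anti-CD84, 4.65 after IgG1). Counted from the detection level it is at least 1.35-fold higher, which leaves 4 higher genes in the list.

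For keratan sulfate, 2 of 6 detected genes were at least 1.5-fold higher and 0 lower, with a median of 0.24. B4galt1, a galactosyltransferase that also acts on many other glycans, had 10.53 after anti-CD84 and 9.52 after IgG1 and was 2.01-fold higher, and B3gnt2 had a difference of 0.59. With centring, the loess curve or quantiles, 1 gene of this list was 1.5-fold higher. Among 13 genes that supply sugar nucleotides and activated sulfate 1 was at least 1.5-fold higher, 0 were lower and all 13 had a difference above 0, with a median of 0.21. That gene was Papss2, a synthase of the sulfate donor, with 9.17 after anti-CD84 and 8.01 after IgG1, 2.23-fold higher. Of the 13, Uap1 (0.05) and Uxs1 (0.07) lay below 0.09, the median over all detected genes. Over the 4 lists joined, 42 of the 54 detected genes were above 0, and the median was 0.22, against 0.09 over all detected genes. The array as a whole also leaned above 0, with 7921 of the 13284 detected genes at or above the Bgn difference of -0.01. With the differences centred, 9 of the 54 were higher and 1 lower, against 7.71% and 8.49% of all detected genes. Counted from the detection level, 12 of the 54 were higher and 0 lower, against 9.15% and 4.13% of all detected genes.

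**Figure D4:**
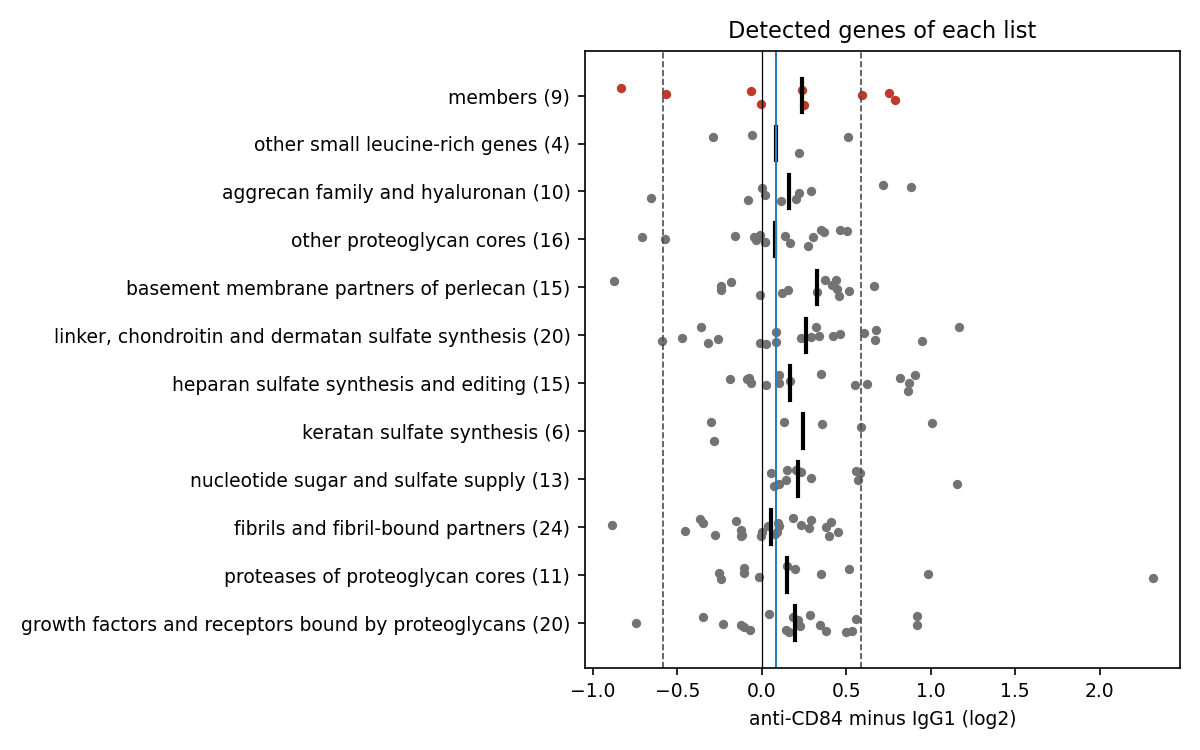
Differences (anti-CD84 minus IgG1, log2) of the detected genes of each list, 1 point per gene, with the list median as a black bar, the number of detected genes in brackets, dashed lines at 1.5-fold and the median of all detected genes (0.09) as a blue line. The members (red) reach past both dashed lines, the sulfate synthesis lists reach further to the right than to the left, and Mmp13 is the point at 2.31 in the protease list.

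Hyaluronan genes, whose product binds versican, differed in both directions. Of 10 detected genes of the aggrecan family and hyaluronan list 2 were at least 1.5-fold higher and 1 lower (median 0.16). The hyaluronan synthase Has2 had 7.19 after anti-CD84 and 6.48 after IgG1 and was 1.64-fold higher. Has1, another synthase, had 5.65 after anti-CD84 and 6.31 after IgG1 and was 1.58-fold lower, and the link protein gene Hapln4 was 1.85-fold higher (6.09 after anti-CD84, 5.21 after IgG1). With quantiles 1 gene of this list was 1.5-fold higher. Cd44, the hyaluronan receptor (8.23 after anti-CD84, 8.03 after IgG1, named after its values were seen), differed by 0.20. Aggrecan (Acan), the close relative of versican in cartilage, was not detected on either array, at 3.88 after anti-CD84 and 4.66 after IgG1.

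Among the remaining proteoglycan cores most genes lay within 1.5-fold. Of 16 detected genes 0 were at least 1.5-fold higher and 1 lower, with a median of 0.08. This was the cell-surface glypican Gpc4, with 7.92 after anti-CD84 and 8.63 after IgG1, 1.64-fold lower. With centring, the loess curve or quantiles, 2 genes of this list were lower, and under centring the second is Srgn (serglycin, 5.12 after anti-CD84, 5.70 after IgG1, named after its values were seen). Of 4 further small leucine-rich genes that were detected, 0 passed 1.5-fold in either direction (median 0.08), and Chadl was the furthest apart at 0.51, followed by Ecm2. Among the basement membrane partners of perlecan 1 of 15 was at least 1.5-fold higher and 1 lower (median 0.33). They were the laminin chain Lama2, 1.58-fold higher (9.37 after anti-CD84, 8.71 after IgG1), and the collagen Col4a1, 1.83-fold lower (9.14 after anti-CD84, 10.02 after IgG1). With centring, the loess curve or quantiles, Lama2 no longer passed 1.5-fold, and 0 genes of the list were higher.

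Genes of the fibrils that decorin and its relatives bind were likewise mostly within 1.5-fold. Of 24 detected fibril and fibril-bound genes 0 were at least 1.5-fold higher and 1 lower, with a median of 0.06. That gene was Col2a1, the collagen of cartilage fibrils, with 8.61 after anti-CD84 and 9.49 after IgG1, 1.85-fold lower. Col1a1, the main chain of type I collagen to which decorin binds (12.52 after anti-CD84, 12.53 after IgG1, named after its values were seen), differed by -0.01. Proteases that cut proteoglycan cores had 2 of 11 detected genes at least 1.5-fold higher and 0 lower (median 0.15), and both were below the detection level after IgG1. The aggrecanase and versicanase Adamts4 was at 5.75 after anti-CD84 and 4.77 after IgG1, at least 1.88-fold higher when counted from the detection level, and the collagenase Mmp13 at 6.38 after anti-CD84 and 4.07 after IgG1, at least 2.91-fold higher. Adamts1, another versicanase (9.24 after anti-CD84, 8.72 after IgG1, named after its values were seen), differed by 0.51.

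Growth factors, receptors and chemokines that proteoglycans bind had 2 of 20 detected genes at least 1.5-fold higher and 1 lower (median 0.20). The receptor Pdgfra had 10.21 after anti-CD84 and 9.29 after IgG1 and was 1.89-fold higher, and Bmp4, a ligand that biglycan binds, was also 1.89-fold higher (6.84 after anti-CD84, 5.92 after IgG1). The chemokine Ccl2 had 5.46 after anti-CD84 and 6.20 after IgG1 and was 1.68-fold lower. Tgfb1, the ligand best known to be held by decorin, had 9.40 after anti-CD84 and 9.26 after IgG1, a difference of 0.14, and was named after its values were seen. Over all 11 lists joined, 20 of 154 detected genes other than the members (12.99%) were at least 1.5-fold higher and 6 (3.90%) lower, with a median of 0.16. The shares over all detected genes were 10.7% and 6.4%.

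Markers were read to see which cells the proteoglycan values come from. Of 14 measured marrow stromal markers 11 were detected, with a median difference of 0.40. Among the 11, 3 were at least 1.5-fold higher and 0 lower, against 10.7% and 6.4% of all detected genes. The 3 were Cxcl12 (2.15-fold), Pdgfra (1.89-fold) and Foxc1 (1.68-fold). Summed on the linear scale, all 14, undetected ones included as in the sums below, came to 17751 after anti-CD84 and 14099 after IgG1. Lepr, a defining marker of marrow stroma in the mouse, was not detected on either array (4.04 after anti-CD84, 3.60 after IgG1). Neither were Eng and Nt5e. Of 10 haematopoietic markers 2 were detected, Spi1 (4.88 after anti-CD84, 5.02 after IgG1) and Csf1r (4.86 after anti-CD84, 4.14 after IgG1, higher by 1.5-fold only by the deposited difference), and Ptprc, which encodes CD45, was below it at 3.90 after anti-CD84 and 3.86 after IgG1. Endothelial markers had 1 of 7 detected after anti-CD84 and 3 of 7 after IgG1, with a median difference of -0.67 and linear sums of 155 after anti-CD84 and 205 after IgG1. The median log2 value of the 7 was 4.32 after anti-CD84 and 4.77 after IgG1. Both lie below the detection level, so these sums cannot be read as marker expression. By the deposited difference 2 of the 3 detected endothelial markers were lower, both below the detection level after anti-CD84. They were Pecam1 (4.32 after anti-CD84, 4.99 after IgG1) and Cdh5 (4.61 after anti-CD84, 5.56 after IgG1). Counted from that level, Pecam1 is at least 1.11-fold and Cdh5 at least 1.65-fold lower, which leaves 1 lower gene. The endothelial median of -0.67 is over 3 genes, and its sign was set by Pecam1 and Cdh5, which passed the filter on IgG1 alone. Emcn, the endothelial marker detected on both arrays, differed by 0.004.

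Of 10 chondrocyte markers 7 were detected, 5 after anti-CD84 and 6 after IgG1. Of these 7, 0 were at least 1.5-fold higher and 1 lower, Col2a1, with a median of -0.37. The others lay within 1.5-fold, among them Sox9, the transcription factor of cartilage (7.99 after anti-CD84, 8.50 after IgG1), and Acan and Matn1 were detected on neither array. The linear sum of the 10 was 845 after anti-CD84 and 1318 after IgG1, most of it Col2a1 and Sox9. Adipocyte markers had a median of -0.38 over 4 detected of 6, of which 2 were detected after anti-CD84 and 4 after IgG1. Of these 0 were past 1.5-fold, the sums were 408 after anti-CD84 and 466 after IgG1, and Adipoq was detected on neither array. Plin1 and Fabp4, detected after IgG1 only, were at least 1.21-fold and 1.22-fold lower counted from the detection level. Passing the filter on IgG1 alone fixes their sign, which draws the median of -0.38 down. The adipocyte markers detected on both arrays, Pparg and Cebpa, differed by -0.25 and 0.07. Tendon markers, 4 of 6 detected, had a median of -0.17 with 0 past 1.5-fold and sums of 1131 after anti-CD84 and 1354 after IgG1. Most of each tendon sum came from Egr1 (9.82 after anti-CD84, 10.11 after IgG1).

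Osteoblast markers, 2 of 6 detected, had a median of -0.05 with 0 past 1.5-fold and sums of 137 after anti-CD84 and 161 after IgG1. Bglap, Ibsp and Sp7 were detected on neither array. The median log2 value of the 6 was 4.20 after anti-CD84 and 4.65 after IgG1. Both lie below the detection level, so these sums cannot be read as marker expression. Smooth muscle and pericyte markers, 7 of 8 detected, had a median of 0.02 with 0 past 1.5-fold and sums of 9635 after anti-CD84 and 8414 after IgG1. Most of each of these sums came from Acta2 (13.07 after anti-CD84, 12.82 after IgG1). The part of cartilage, fat, endothelial or other such cells in the member differences was not tested.

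**Figure D5:**
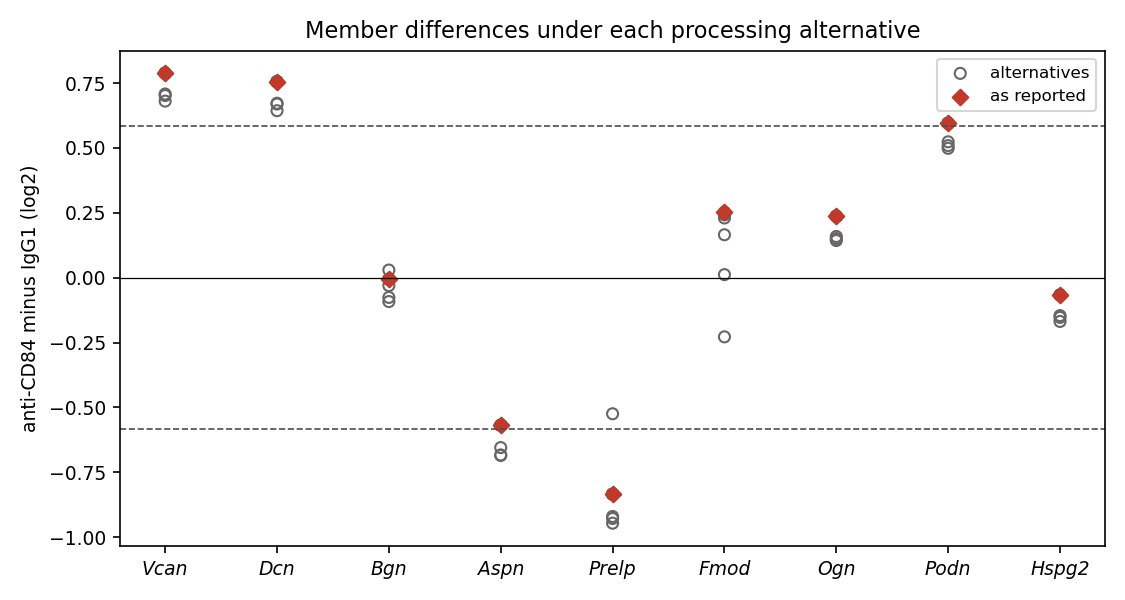
Difference (anti-CD84 minus IgG1, log2) of each detected member as reported (red diamonds) and under the processing alternatives (open circles), with dashed lines at 1.5-fold. Vcan and Dcn keep all circles above the upper line, Podn and Aspn have circles on both sides of a line, Prelp has 1 circle inside the lower line at -0.52, and Fmod has circles on both sides of 0.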

How the data were processed

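RNA of 2 cultures, 1 per condition, was measured on 1 array each. The authors deposited log2 expression values per probe set, and the submitters' processing notes name RMA and Partek without versions or settings. The log2 scale was read off the values, whose lowest is 1.82 and highest 13.8, with array medians of 4.87 (anti-CD84) and 4.88 (IgG1). Which arrays were normalized together, the annotation version and the build: not given in the sources used here. RMA can compress differences of dim probe sets.

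Of 41345 probe sets 23521 have 1 symbol in GEO's platform annotation, 1814 have several and 16010 none there. The brightest probe set represents a gene. Genes above 4.84, the 95th percentile of the sensory receptor values, on at least 1 array were counted, at 1.5-fold and 2-fold. Counts use the deposited difference. A fold with 1 array below that level was counted from it ("at least"). The members and the 11 further lists were chosen with earlier results of these data known. Named genes were all members, and of each list up to 4 genes past 1.5-fold by absolute difference, or 2 where none passed. 8 marker lists were read. Upstream windows and gene order come from RefSeq tables (GRCm38.p6), and the motifs were chosen after the windows were seen. The alternatives were 3 rescalings, the mean of all probe sets, no filter on level, a stricter level (6.88), values floored at the detection level and, added after seeing the data, both arrays above that level and another probe set for Fmod. A 2-fold count was tried on simulated data with 200 genes shifted by 2 log2 units and noise of 0.25. That noise is smaller than the spread of the real differences, and the 1.5-fold counts were not simulated, so it does not check them. Python 3.11.15, pandas 2.3.3, numpy 2.4.6, matplotlib 3.10.9, R 4.3.3 and limma 3.58.1 (loess, span 0.4) were used.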

Additional observations from a re-analysis of the deposited data

How the results depend on the processing

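With 1 array per group no replicate could be left out. No paired analysis was possible because each group has 1 sample. The count of members at least 1.5-fold higher was 2 or 3 under all 9 alternatives. Vcan and Dcn can move only with the 3 rescalings. The count lower was 2 with centring, the loess curve and quantiles, where Aspn was added, and 0 with the mean of all probe sets, where Prelp had -0.52 because the dimmer probe set entered the mean. With the stricter level the members' median was -0.01, since Podn and Fmod drop out. Over the other proteoglycan lists joined, 12 higher and 3 lower genes were left with the stricter level, which tests fewer genes, and 10 lower genes were counted with no filter on level. Over all genes the counts of 1427 higher and 850 lower became 1024 and 1128 with centring, 742 and 219 with the stricter level, 1799 and 1575 with no filter, 1216 and 548 with the floor, and 1125 and 457 with both arrays above the detection level. Of 297 counts and medians of the single lists under the alternatives 29 moved by over 1.5 times or passed 1.5-fold, and 0 changed sign past it. List medians near 0 did change sign within 1.5-fold. Those of the further small leucine-rich genes, the remaining cores and the fibril genes lay below 0 with all 3 rescalings, at -0.05 for fibrils with loess. With no filter on level the keratan sulfate median was -0.04 and that of the further small leucine-rich genes -0.06. Signal over background limits Fmod and Lum most.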
